A study of Mus musculus with 4 samples.

Results

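The cells described here are T cells of the mouse aortic arch that carried Il7r, the receptor chain for interleukin 7, and no UMIs of Nkg7, a granule gene of cytotoxic lymphocytes, or of the thymocyte genes Rag1 and Dntt. They were taken from single-cell RNA sequencing by their unique molecular identifiers (UMIs, each of which marks a captured RNA molecule). Cells were kept if they showed 200 to 6000 genes and no more than 15% of UMIs from mitochondria. A kept cell was a member if it had at least 2 UMIs of Cd3d, Cd3e and Cd3g together, at least 1 UMI of Il7r, 0 UMIs of Nkg7, 0 UMIs of Rag1 and Dntt, and at most 2 UMIs of Mki67 and Top2a. The rule found 188 members among 14148 kept cells, which is 1.33% (95% interval 1.15 to 1.53), and 17.03% of the 1104 kept cells with at least 2 Cd3 UMIs. The members were thus chosen by their own UMIs of these genes, which are not findings here.

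Aortic arches with their branches and surrounding tissue came from male mice that were 3 months old at the start. Nrf2flox/flox mice carry a floxed Nrf2 gene (Nfe2l2), which encodes a transcription factor of the antioxidant response. In Nrf2Cdh5tKO mice a Cre recombinase driven by the Cdh5 promoter removes exon 5 of this gene, and the control mice share the floxed alleles without the Cre. Cdh5-Cre is active in endothelium and in only a proportion of haematopoietic cells, so it is not known which of the T cells carry the excised gene. The atherosclerotic groups received an AAV8 vector in the tail vein and a high-fat diet for 21 weeks, and the normocholesterolemic groups received saline and standard diet. Each library came from pooled arches, 4 in either normocholesterolemic condition and 3 in either atherosclerotic one, and living cells were sorted by exclusion of a DNA dye. Since every condition is 1 library, nothing between conditions could be checked against replicates, and every interval given below is a 95% interval that covers counting error only. The members and both populations they are set against were cut from the same UMIs, so those contrasts are descriptions with no test.

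Values for the libraries are given throughout in the order normocholesterolemic Nrf2flox/flox, the library labelled normocholesterolemic Nrf2Cdh5tKO, atherosclerotic Nrf2flox/flox, and the library labelled atherosclerotic Nrf2Cdh5tKO. They held 7890, 2972, 1020 and 2266 kept cells, of which 113, 32, 17 and 26 were members. The members had a median of 7129.5 UMIs and 2201 genes per cell, with 918 to 34960 UMIs. Their summed UMIs were 995917, 260814, 120781 and 152549. A gene with 0 UMIs in the members of a library may therefore have been present at up to 3.01, 11.5, 24.8 or 19.7 CPM, as a count of 0 allows for 3 UMIs. CPM, the level used below, is a gene's UMIs over all UMIs of the group of cells, times 1000000. The first library is by far the deepest, and the atherosclerotic Nrf2flox/flox library with its 17 members the shallowest. Between pairs of libraries 32 cell barcodes recurred, and none of them was a member.

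Interleukin 7 is made by stromal cells, and its receptor keeps resting T cells alive. Il7r is known to be high in naive and memory T cells and is low in thymocytes that carry Cd4 and Cd8 together. It is also high in innate-like T cells of tissues. T cells recognise antigen through one of 2 receptor types, an alpha-beta or a gamma-delta receptor. Certain gamma-delta T cells leave the fetal thymus already committed to interleukin 17, settle in skin, lung, adipose tissue and other barrier or connective tissues, and stay there for life. Their receptors are nearly invariant and use the gamma segment Tcrg-V6 with the delta segment Trdv4.

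The V segments of that receptor are shown because they marked one of the 2 kinds of cell among the members. Tcrg-V6 lies at chr13:19190356-19190929 on the plus strand and Trdv4 at chr14:54074905-54075515 on the plus strand (GRCm38, GENCODE M21). The lines below give the last 300 bases of exon 2 of Tcrg-V6, chr13:19190630-19190929, and the 299 bases of exon 2 of Trdv4, chr14:54075217-54075515. These exons encode the variable domain, and the capitals mark the in-frame cysteine codon that opens the joining loop of the receptor.
Tcrg-V6: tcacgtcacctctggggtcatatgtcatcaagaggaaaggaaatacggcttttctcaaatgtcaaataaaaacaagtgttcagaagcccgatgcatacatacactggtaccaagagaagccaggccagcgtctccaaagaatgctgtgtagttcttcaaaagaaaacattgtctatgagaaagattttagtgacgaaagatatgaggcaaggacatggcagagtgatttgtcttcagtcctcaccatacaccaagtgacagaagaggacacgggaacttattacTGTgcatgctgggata
Trdv4: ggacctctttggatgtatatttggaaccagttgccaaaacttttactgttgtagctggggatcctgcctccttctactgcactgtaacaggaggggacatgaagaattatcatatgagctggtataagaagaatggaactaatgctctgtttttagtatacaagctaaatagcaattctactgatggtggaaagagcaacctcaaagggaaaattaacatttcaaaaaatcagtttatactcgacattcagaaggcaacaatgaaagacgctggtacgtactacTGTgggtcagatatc
The cysteine codon begins 16 bases before the end of the exon in Tcrg-V6 and 15 bases before it in Trdv4, and neither frame holds a stop codon. Reads of the 3′ end do not show the joined loop itself.

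The label was first checked against its markers. Cd3e (chr9:44998740-45009627, minus strand), a chain of the CD3 complex that carries the receptor signal, had UMIs in 178 of the 188 members (94.7%). Trbc2, a constant segment of the receptor beta chain, had them in 175 members (93.1%). Il7r (chr15:9505788-9530176, minus strand) was present in every member by the rule, against 66.3% of the cytotoxic T cells and 4.11% of the Rag1 positive cells. Trac (chr14:54220521-54224206, plus strand), the constant segment of the alpha chain, had UMIs in only 92 members (48.9%), and the shares by library were 43.4%, 68.8%, 52.9% and 46.2%. Smooth muscle-type cells were kept cells with at least 50 UMIs of Acta2, Tagln and Myh11 together. They lack the T cell genes above, have a higher median of 15764 UMIs and show the level of free RNA. Of these 2359 cells 2.76% had Cd3e, 11.4% Trbc2, 1.65% Trac and 1.78% Il7r UMIs. Cd3e is one of the genes the rule counted, so its share was set in part by the rule and is no check of the label. Trbc2, which the rule did not use, was read in most members, but about as many of them lacked Trac UMIs as had them.

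The other constant segment accounted for most of the members without Trac. Trdc (chr14:54142851-54148868, plus strand), the constant segment of the delta chain, had UMIs in 95 members (50.5%, interval 43.2 to 57.9), and 172 members (91.5%) had Trac or Trdc. Trac UMIs were found in 15 of the 95 members with Trdc (15.8%) and in 77 of the 93 without it (82.8%). The Trdc UMIs per cell left little middle ground, with 0 UMIs in 93 cells, 1 to 3 in 4 cells and 4 or more in 91 cells, and a median of 18 where any were found. Trdc had UMIs in 1.10% of the smooth muscle-type cells, 8.99% of the cytotoxic T cells and 27.4% of the Rag1 positive cells. After every cell was thinned to 1000 UMIs, 41.7% of the members still had Trdc. The members are therefore described below as Trdc positive and Trdc negative, a split chosen after these values were seen and given with no test.

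**Figure D1:**
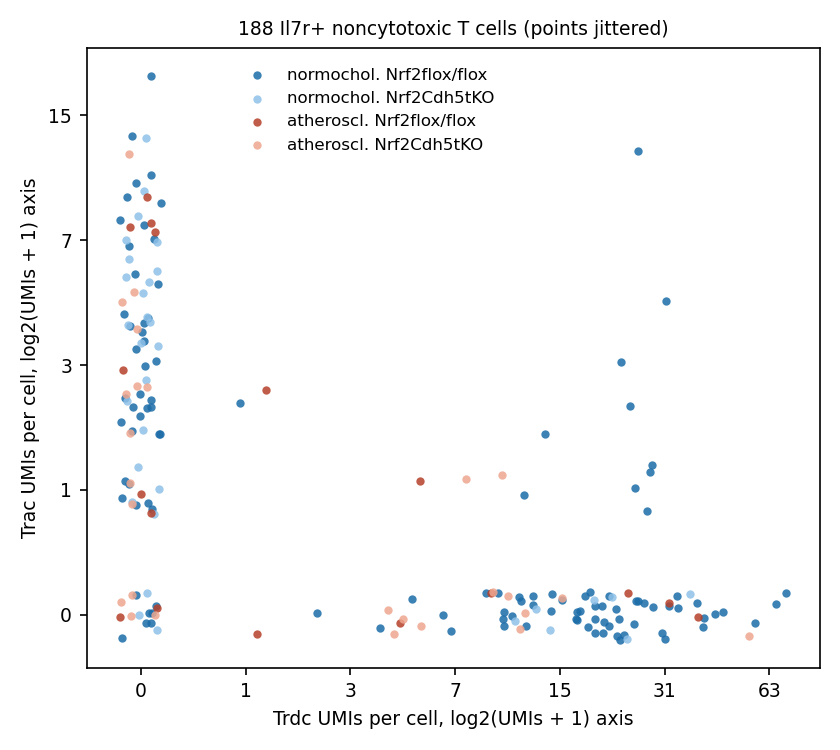
Trdc UMIs (horizontal axis) against Trac UMIs (vertical axis) in each of the 188 members, both axes as log2 of UMIs plus 1 with a small fixed jitter and points coloured by library. Of the 95 cells to the right of 0 Trdc UMIs, 15 also had Trac UMIs, and 77 of the 93 cells at 0 Trdc UMIs had them.

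The 4 libraries held the 2 kinds of cell in unlike shares. Trdc positive cells numbered 68, 7, 8 and 12, which is 60.2% (50.5 to 69.3), 21.9% (9.28 to 39.97), 47.1% (23.0 to 72.2) and 46.2% (26.6 to 66.6) of the members. The library labelled normocholesterolemic Nrf2Cdh5tKO was the lowest, its interval lay below that of the normocholesterolemic Nrf2flox/flox library, and the intervals of the other pairs overlapped. Of all kept cells the Trdc positive members were 0.862% (0.670 to 1.09), 0.236% (0.0947 to 0.485), 0.784% (0.339 to 1.54) and 0.530% (0.274 to 0.923). The Trdc negative members were 0.570% (0.416 to 0.762), 0.841% (0.545 to 1.24), 0.882% (0.404 to 1.67) and 0.618% (0.338 to 1.03), with all intervals overlapping.

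The members as a whole took a similar share of every library but an unlike share of its T cells. They were 1.43% (1.18 to 1.72), 1.08% (0.738 to 1.52), 1.67% (0.974 to 2.66) and 1.15% (0.751 to 1.68) of the kept cells, and all intervals overlapped. Of the cells with at least 2 Cd3 UMIs they were 22.2% (18.7 to 26.1), 9.58% (6.65 to 13.3), 9.88% (5.86 to 15.4) and 29.2% (20.1 to 39.8). The intervals of the first and last library lay above those of the middle 2. The denominator moved with it, since Rag1 positive cells were 3.05%, 7.40%, 10.1% and 0.883% of the kept cells in the same order. The part of these cells in the difference was not tested. Pooling of 3 or 4 mice also hides how far single animals differed.

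**Figure D2:**
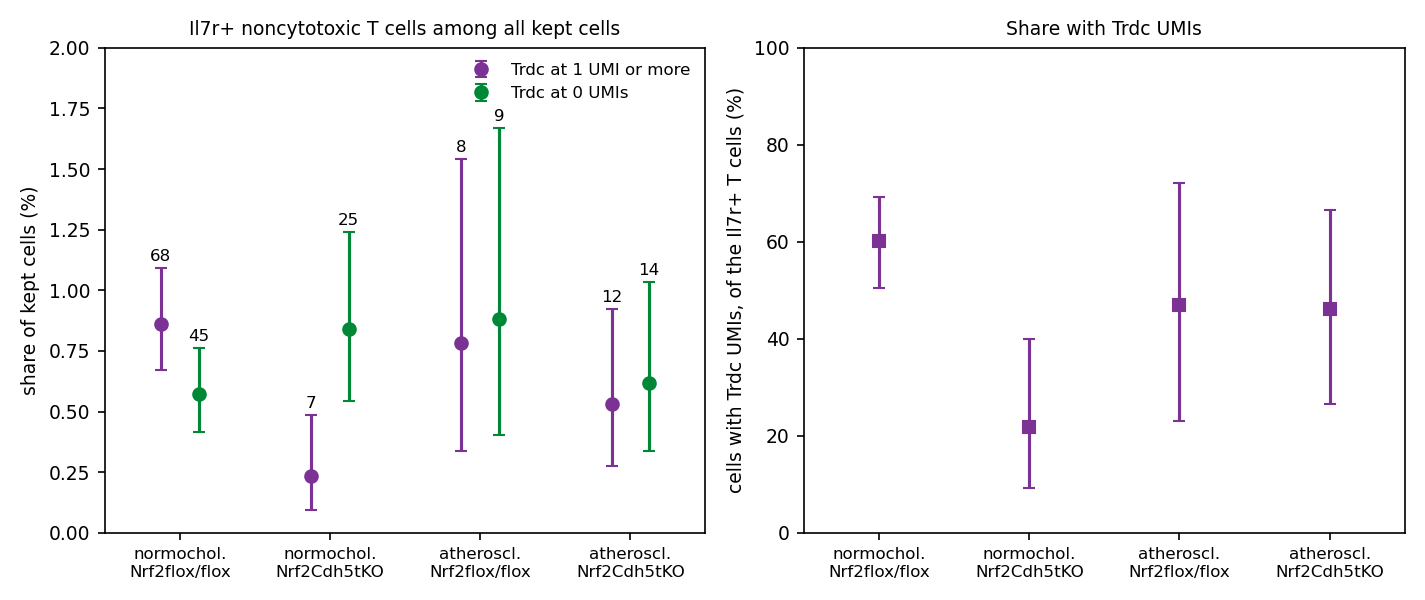
Left, Trdc positive and Trdc negative members as a share of kept cells in percent (vertical axis) in each of the 4 libraries, with the number of cells above each bar. Right, the share of members with Trdc UMIs in percent, where points are shares and bars exact 95% intervals, and the shares run from 21.9% to 60.2%.

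The Trdc positive members carried RNA of a gamma-delta receptor with the V segments shown above. Tcrg-C1 (chr13:19214103-19217024, plus strand), a constant segment of the gamma chain, was at 679, 775, 692 and 752 CPM in them and at 40.7, 4.87, 19.4 and 98.0 CPM in the Trdc negative members. Its log2 ratio over the summed libraries was 4.35 (3.74 to 5.04). Tcrg-C1 has near-identical copies among the gamma constant segments, so its level is uncertain. Trdv4 was at 1159, 1064, 851 and 1442 CPM in the Trdc positive members against 3 UMIs in 1 of the Trdc negative members. Tcrg-V6 had 80, 15, 11 and 23 UMIs in the Trdc positive members and none in the Trdc negative ones, which is at least 31.6-fold higher. One or both of these V segments were found in 88 of the 95 Trdc positive members (92.6%) and in 1 of the 93 others.

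Other genes known from gamma-delta T cells followed the same line. Cd163l1 (chr7:140218267-140231145, plus strand), a scavenger receptor of interleukin 17 producing gamma-delta T cells, was at 844, 1298, 678 and 961 CPM in the Trdc positive members. It had UMIs in 87 of these 95 cells and in none of the 93 Trdc negative cells, so that it was at least 188-fold higher. Sox13, a transcription factor of the gamma-delta lineage, was at 53.2, 108, 72.1 and 123 CPM against 3.13, 0, 19.4 and 14.01 CPM, a log2 ratio of 3.80 (2.18 to 6.12). With Tcrg-C1, Cd163l1 and Sox13 all detected, these cells are called gamma-delta T-like.

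Genes of the interleukin 17 programme were higher in the gamma-delta T-like cells. Of all 4677 genes with at least 40 UMIs in the members, 1.77% were 2-fold or more higher in the Trdc positive cells in all 4 libraries and 1.8% were lower. Of the 16 genes listed for type 17 and gamma-delta T cells 14 had enough UMIs, 7 were 2-fold higher in all 4 libraries and none was lower. The medians of the list were 1.97, 2.82, 1.56 and 1.32 on the log2 scale, beside 0.12, 0.01, 0.21 and 0.08 for all genes. The list was drawn up with earlier results of these data known, it holds Cd163l1 and Sox13, by which the cells were named, and it is no independent evidence. The minimum counts both kinds of cell together, and 5 of the 7 genes had under 40 UMIs in the Trdc negative cells, so they met it through the side where they are high and had to differ. Counts and medians of lists over this split are therefore descriptions.

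A transcription factor and a kinase of the programme were compared first. Maf, a transcription factor of interleukin 17 producing gamma-delta T cells, was at 389, 667, 649 and 826 CPM against 213, 82.8, 292 and 336 CPM. Blk, a Src family kinase of gamma-delta T and B cells, was at 243, 523, 245 and 382 CPM against 37.5, 29.2, 77.8 and 28.0 CPM. For both genes the Trdc positive cells were above the Trdc negative ones in each library.

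Receptors for the cytokines that switch on interleukin 17 were found in the same cells. Il1r1, the receptor for interleukin 1, was at 234, 198, 231 and 222 CPM against 56.3, 29.2, 19.4 and 56.0 CPM, a log2 ratio of 2.36 (1.80 to 2.98). Il23r (chr6:67422932-67491855, minus strand), the receptor for interleukin 23, was at 138, 18.03, 159 and 160 CPM against 40.7, 39.0, 0 and 56.0 CPM. Il23r was lower in the Trdc positive cells of the library labelled normocholesterolemic Nrf2Cdh5tKO, where 1 UMI was found, and higher in those of the other 3 libraries. Tmem176a, a membrane protein abundant in type 17 lymphocytes, was at 1675, 1569, 1326 and 1356 CPM against 404, 214, 233 and 518 CPM.

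Interleukin 17 genes were read in a minority of the gamma-delta T-like cells. Il17a (chr1:20730905-20734496, plus strand), the cytokine that recruits neutrophils, had 386, 11, 55 and 3 UMIs in the Trdc positive members and 0, 0, 0 and 2 UMIs in the Trdc negative ones. Il17f (chr1:20777146-20790617, minus strand), its relative, had 102, 0, 0 and 0 UMIs against 1, 0, 0 and 0. Il17a or Il17f UMIs were present in 27 of 68, 2 of 7, 4 of 8 and 2 of 12 Trdc positive cells, which is 36.8% of all 95, and in 2 of the 93 Trdc negative cells. The 3 richest cells held 39.4%, 100%, 98.2% and 100% of the Il17a UMIs of the members, and 35.2% over all libraries. In the first library the Il17a UMIs were spread over 25 cells. In the last 3 libraries the Il17a level rests on 2, 4 and 3 cells. In smooth muscle-type cells 0.170% had an Il17a UMI, and none of the 178 cytotoxic T cells or 584 Rag1 positive cells had one.

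The gamma-delta T-like cells had higher levels of genes of tissue-settled T cells. Of the 18 genes listed for memory and tissue T cells 16 had enough UMIs, 6 were 2-fold higher in all 4 libraries and 1 was lower, with medians of 1.04, 0.91, 1.60 and 1.39. Cxcr6, a chemokine receptor of tissue-resident lymphocytes, was at 872, 1118, 937 and 579 CPM against 338, 112, 175 and 280 CPM, a log2 ratio of 1.81 (1.56 to 2.06). S100a4, a calcium-binding protein of memory cells, was at 2622, 2831, 2826 and 2810 CPM against 901, 370, 506 and 686 CPM. The 4 libraries lay close together for S100a4 in the Trdc positive cells and far apart in the others. Ccr2, a receptor for the chemokine Ccl2, was at 526, 992, 461 and 752 CPM against 225, 127, 19.4 and 308 CPM. S100a6 and Lgals1, which fibroblasts also carry, had log2 ratios of 2.18 and 1.95. The 8 fibroblast markers summed to 8197, 613, 12557 and 665 CPM in the Trdc positive and 4914, 5108, 525 and 700.3 CPM in the Trdc negative cells. Without the 13 members that had 50 or more UMIs of these markers, an alternative chosen after the data were seen, S100a6 had 2.36 (2.24 to 2.47) and Lgals1 2.01 (1.84 to 2.19), and 6 genes of the list were again 2-fold higher in all 4 libraries and 1 lower.

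Further genes set the Trdc positive cells apart. Il2ra, the high-affinity chain of the interleukin 2 receptor, was at 219, 469, 288 and 394 CPM against 68.8, 43.8, 19.4 and 168 CPM. Tnfsf11, which encodes the osteoclast factor RANKL, was at 623, 361, 144 and 197 CPM against 178, 24.3, 19.4 and 168 CPM. Pdcd1, the inhibitory receptor PD-1, was at 398, 379, 101 and 222 CPM against 37.5, 0, 58.3 and 154 CPM. For Tnfsf11 and Pdcd1 the gap was wide in the normocholesterolemic libraries and narrow in the library labelled atherosclerotic Nrf2Cdh5tKO, where the log2 ratios were 0.22 and 0.51. The genes with the largest least extreme ratio over the libraries were Trdv4, Cd163l1, Tcrg-V6, Rln3, Gcnt2, Tcrg-C1 and Plcb4. Rln3, which encodes the peptide relaxin 3, had 69, 9, 10 and 10 UMIs in 38 Trdc positive cells and 3 UMIs in the Trdc negative ones.

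The members without Trdc were mostly alpha-beta T cells by their reads. Trac was at 544, 487, 739 and 504 CPM in them against 48.8, 0, 57.7 and 24.6 CPM in the Trdc positive cells, a log2 ratio of -3.60 (-4.12 to -3.12). Trbc2 was at 1270, 1704, 2509 and 1008 CPM against 478, 415, 663 and 493 CPM, so that Trbc2 reads were also frequent in the gamma-delta T-like cells. Trbc1 and Trbc2 are near-identical copies, and reads may be divided between them. The coreceptor Cd4 (chr6:124864692-124888221, minus strand) had UMIs in 38 of the 93 Trdc negative cells (40.9%) and in 1 of the 95 Trdc positive cells. Cd8a or Cd8b1 had UMIs in 22 of 93 (23.7%) and 2 of 95 cells. Neither coreceptor was read in 37 of 93 and 93 of 95 cells, and in smooth muscle-type cells Cd4 and Cd8b1 were read in 0.763% and 2.63%. When cells were thinned to 1000 UMIs, Cd4 was left in 4.81% of all members, so the absence of Cd4 UMIs in a single cell says little.

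Genes of naive, recirculating T cells were higher in the Trdc negative members. Of the 18 listed genes all had enough UMIs, 10 were 2-fold lower in the Trdc positive cells in all 4 libraries and none was higher, with medians of -1.78, -4.34, -2.34 and -2.52. Of these 10 genes 7 had under 40 UMIs in the Trdc positive cells. Ccr7 (chr11:99144196-99155077, minus strand), the receptor that guides T cells into lymph nodes, was at 353, 443, 661 and 350 CPM in the Trdc negative members. The Trdc positive members held 11, 0, 1 and 0 Ccr7 UMIs, and the log2 ratio was -4.90 (-5.87 to -4.07). Lef1 (chr3:131110471-131224356, plus strand), a transcription factor of naive T cells, was at 416, 638, 233 and 308 CPM against 10, 4, 0 and 0 UMIs.

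Factors that keep T cells in circulation moved with them. S1pr1, the receptor that lets T cells leave tissue, had a log2 ratio of -4.15, and Klf2, the factor that drives S1pr1, had -1.97. The chromatin organiser Satb1 had -3.53 and Tcf7, a partner of Lef1, had -1.72. Tcf7 was lower in the Trdc positive cells of every library, although the log2 ratio was only -0.11 in the library labelled atherosclerotic Nrf2Cdh5tKO. Of the 8 GIMAP genes, small GTPases of lymphocyte survival, 4 were 2-fold lower in all 4 libraries and none was higher, and 2 of these 4 had under 40 UMIs in the Trdc positive cells. Gimap6 had a log2 ratio of -2.69, and Gimap3 of -0.12 (-0.36 to 0.13).

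The signalling parts of the T cell receptor divided between the 2 kinds of cell. Of 18 listed genes 17 had enough UMIs, 7 were 2-fold lower in the Trdc positive cells in all 4 libraries and none was higher. All 7 had under 40 UMIs in the Trdc positive cells and met the minimum through the Trdc negative ones. Lck, the kinase that starts receptor signalling and binds Cd4 and Cd8, had 60, 56, 24 and 13 UMIs in the Trdc negative members and 5, 0, 0 and 0 in the Trdc positive ones. The log2 ratio of Lck was -5.38 (-7.02 to -4.13). Cd28, the main costimulatory receptor, had 89, 77, 21 and 17 UMIs against 11, 0, 0 and 0, a log2 ratio of -4.66 (-5.68 to -3.79). Cd2, an adhesion receptor, had 84, 58, 25 and 14 against 10, 0, 0 and 0 UMIs. Themis, a regulator of thymocyte selection, had 51 UMIs in the Trdc negative cells and none in the others, which is at least 23.1-fold lower in the Trdc positive cells. Not every gene of the pathway did so. The adaptor Lat had a log2 ratio of 0.42 (0.18 to 0.66) and the kinase Zap70 one of 0.75 (0.25 to 1.28). Cd3g, the receptor chain of the complex that the rule counted, was at 1929 CPM in the Trdc positive and 818 CPM in the Trdc negative cells.

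**Figure D3:**
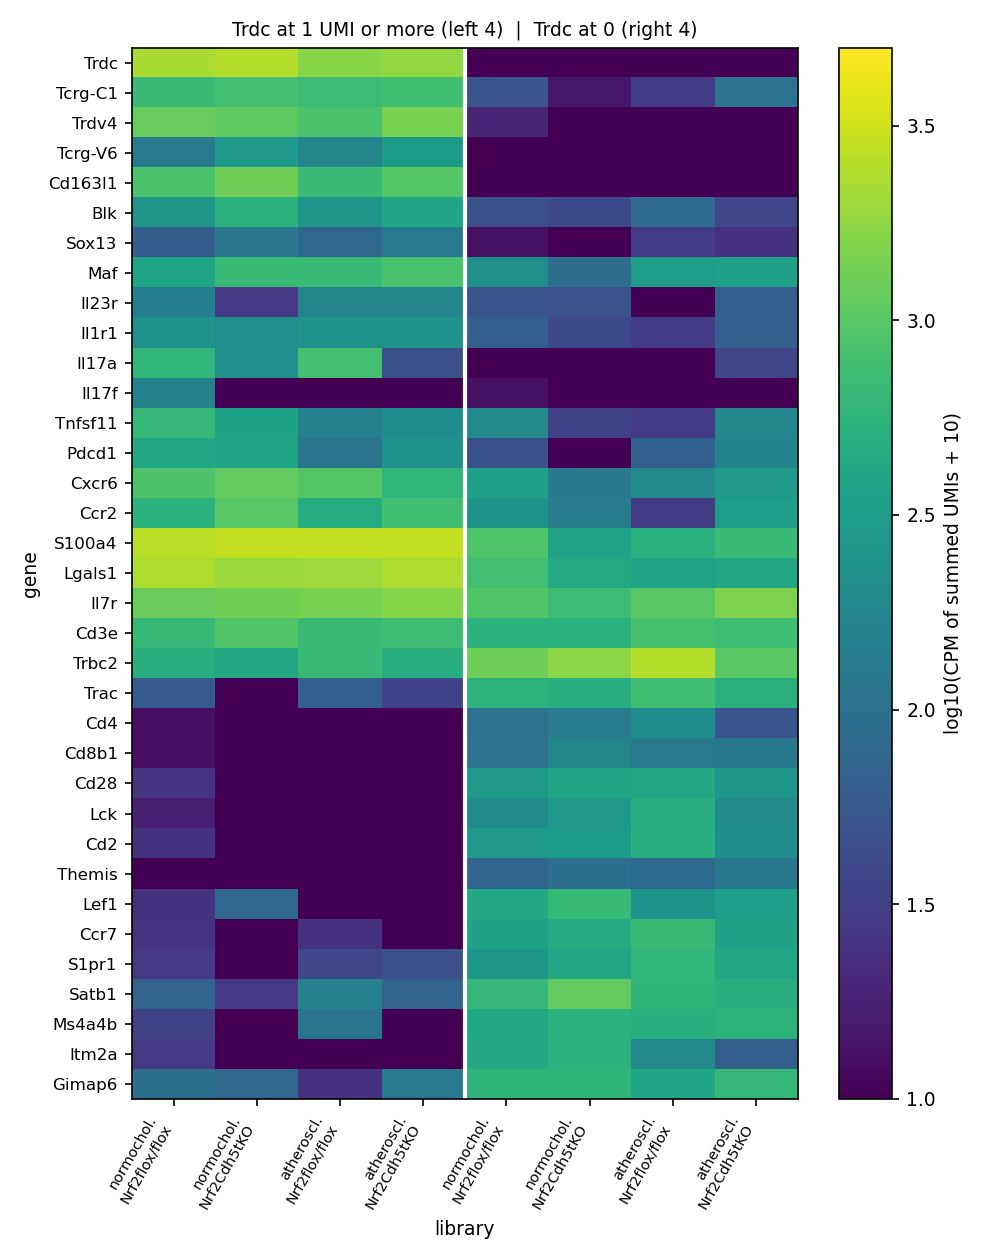
Level of named genes (rows) in the Trdc positive members of each library (left 4 columns) and in the Trdc negative members (right 4 columns), coloured by log10 of the summed CPM plus 10. Trdv4, Cd163l1 and Tcrg-V6 are bright only on the left, Lck, Cd28 and Ccr7 are bright only on the right, and Il7r and Cd3e are bright on both sides.

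The receptor that the rule asked for was read at high levels in both kinds of cell. Il7r was at 1208, 1334, 1442 and 1602 CPM in the Trdc positive and 926, 701, 992 and 1513 CPM in the Trdc negative members, a log2 ratio of 0.46 (0.31 to 0.60) that includes the rule's own gene and is a description. Downstream of the receptor, the feedback inhibitor Cish had a log2 ratio of 1.71 (1.22 to 2.23) and the kinase Pim1 one of 1.05 (0.85 to 1.25). The survival gene Bcl2 had -0.19 (-0.50 to 0.11). Of 14 listed genes of the pathway 13 had enough UMIs, 1 was 2-fold higher in all 4 libraries and none was lower.

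Genes listed for other T helper fates were read unevenly. Of the 8 type 1 genes, Ifngr1, a receptor chain for interferon gamma, had 1402 UMIs in 164 members, Il18r1, a receptor for interleukin 18, had UMIs in 113 members and Stat4, which carries the interleukin 12 signal, in 116. The defining type 1 genes Tbx21 and Ifng had UMIs in 3 members each. Of the 12 type 2 genes Lmo4 was the most abundant, with 842 UMIs in 135 members. Of the 6 follicular helper genes Pdcd1 made up 341 of 418 UMIs, Bcl6 was read in 19 members, Cxcr5 in 1 and Il21 in none. Foxp3, the factor of regulatory T cells, had 8 UMIs in 2 Trdc negative members and none in the Trdc positive ones. Il1rl1 or Il13, genes of type 2 lymphocytes, were read in 6 of the 93 Trdc negative members, all of them in the normocholesterolemic Nrf2flox/flox library. Gata3, the factor of type 2 cells that is also needed by other T cells, had UMIs in 55 members (29.3%), against 29.8% of the cytotoxic T cells, and a log2 ratio of -1.45 (-2.06 to -0.86), with the Trdc positive cells higher only in the atherosclerotic Nrf2flox/flox library. The cells with Foxp3, Il1rl1 or Il13 are too few to describe as groups of their own.

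Depth differed between the 2 kinds of cell in most libraries, and RNA of other cells did not spare them. The median was 8001 UMIs in the Trdc positive and 6665 UMIs in the Trdc negative cells. By library it was 8706, 7328, 7008.5 and 6538.5 UMIs in the Trdc positive and 6943, 7373, 5574 and 4611.5 UMIs in the Trdc negative cells. The Scrublet caller marked 8, 1, 0 and 0 members as doublets, and the 8 were all Trdc positive, which is 11.8% of the 68 such cells of that library, against 2.16% of all kept cells marked over the 4 libraries. Without the marked cells the Trdc positive shares were 57.1%, 22.6%, 47.1% and 46.2%. The 8 fibroblast markers summed to 7143, 4152, 7435 and 682 CPM in the members, with Gsn the most abundant of them in the first 2 libraries, Dcn in the third and Mgp in the fourth. Most of it lay in a few cells, since the 3 richest members held 48.8%, 86.0%, 95.9% and 23.1% of these UMIs, and the median member had 8, 5, 3 and 4. Leaving out the 13 members with 50 or more gave Trdc positive shares of 58.3%, 23.3%, 43.8% and 46.2%. Myeloid markers summed to 1604, 974, 1557 and 1285 CPM, with Cst3 the most abundant. Smooth muscle markers summed to 797, 276, 215 and 642 CPM, with Acta2 the most abundant. B cell markers summed to 72.3, 307, 58.0 and 98.3 CPM, with Ighm the most abundant, and in the library labelled normocholesterolemic Nrf2Cdh5tKO 1 Trdc negative cell held 68 of the 80 UMIs. Of the 4 endothelial markers Cdh5, Vwf and Cldn5 were at 0 UMIs, and the adhesion molecule Pecam1, which leukocytes also carry, had 32, 16, 5 and 9 UMIs in 46 members. Pecam1 was at 40.5 CPM (31.1 to 51.9) in the members and 26.3 CPM (19.6 to 34.5) in the cytotoxic T cells described next. Also at 0 UMIs was Ncr1, a receptor that defines natural killer cells.

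Cytotoxic T cells, with at least 2 Cd3 and 2 Nkg7 UMIs, were the first population set beside the members. They numbered 73, 45, 29 and 31, with a median of 8387 UMIs. Of 4424 genes with at least 100 UMIs in both populations together, 1.42% were 2-fold or more higher in the members in all 4 libraries and 1.27% were lower. Counts of list genes below are of genes past 2-fold the same way in all 4 libraries. The members were higher for 9 of the 11 type 17 genes with enough UMIs, out of 16 listed, with medians of 4.56, 1.95, 4.60 and 3.91. They were lower for 10 of the 13 cytotoxic genes with enough UMIs, out of 17 listed, with medians of -5.32, -3.72, -3.81 and -3.57. The rule had already set Nkg7 to 0 in one population and to 2 or more in the other, so both directions follow in part from it. The minimum was also met through one side alone, since 9 of the 13 cytotoxic genes had under 40 UMIs in the members and 7 of the 11 type 17 genes under 40 in the cytotoxic T cells. Such genes had to differ, so these counts and medians describe the lists and support nothing. The medians of all genes were -0.04, 0.02, -0.01 and 0.04.

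The genes furthest above the cytotoxic T cells were mostly those that also set the gamma-delta T-like cells apart. Trdv4, Tcrg-V6 and Il17a had no UMI in any cytotoxic T cell and were at least 432-fold, 54.6-fold and 193-fold higher in the members. Cd163l1 had log2 ratios of 6.54, 7.75, 7.25 and 7.78, and Blk was higher by at least 3.38 in each library. Where a population had 0 UMIs in a library, its ratio depends on the 0.5 UMIs added. Ltb4r1, the receptor for the lipid attractant leukotriene B4, had 3.31 to 5.88 over the libraries, and Ramp3, a partner of receptors for adrenomedullin and related peptides, had 5.02, 4.07, 2.95 and 3.97. Ramp3 was not a gene of the Trdc positive cells alone, since 42 of the 93 Trdc negative cells also had UMIs of it. On the other side stood Ccl5, a chemokine of effector T cells, with -5.32, -10.23, -11.37 and -8.10, and Gzmb, the protease granzyme B, with -4.74, -4.45, -5.04 and -4.58. Genes of dividing cells such as Nusap1, Pclaf and Birc5 were also lower, after a rule that limited Mki67 and Top2a in the members only.

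Genes of resting T cells had no common direction against the cytotoxic T cells. The members here are both kinds of cell together, which differ on these genes. Of 18 naive and 8 GIMAP genes none was 2-fold higher or lower in all 4 libraries. The medians of the naive list were -0.28, 0.14, 0.11 and -0.51, and those of the GIMAP list -0.48, -0.19, -0.81 and 0.19. Ccr7 had a log2 ratio of -0.17 (-0.40 to 0.06) over the summed libraries and Bcl2 one of -0.04 (-0.24 to 0.16). Memory and tissue genes had medians of 0.74, 0.11, 0.46 and 0.99, with Cxcr6 at a log2 ratio of 2.60 (2.37 to 2.83).

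Rag1 positive thymocyte-like cells, kept cells with at least 1 Rag1 UMI, were the second population. No limit on Cd3 or on genes of dividing cells was set for them, and 81.3% of them had Cd3e UMIs. They numbered 241, 220, 103 and 20, with a median of 7427.5 UMIs, and 8 cells were both cytotoxic T cells and Rag1 positive. Of 7564 genes with enough UMIs 3.64% were 2-fold or more higher in the members in all 4 libraries and 8.16% were lower, and the median of all genes was -0.36, -0.31, -0.37 and -0.24. Thymocyte genes were lower in 9 of 11 cases with enough UMIs, out of 14 listed, with medians of -4.58, -4.07, -4.81 and -3.32. Ptcra, the surrogate alpha chain of early thymocytes, and Rag2, the partner of Rag1, had no UMI in any member and were at least 18.9-fold and 13.3-fold lower. Here too the rule had removed cells with Rag1 or Dntt. Of the 11 thymocyte genes all had 100 or more UMIs in the thymocyte-like cells alone, none had in the members, and 7 had under 40 there, so their count was fixed by the minimum and supports nothing.

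Above the thymocyte-like cells stood genes of tissue T cells and some genes of mature T cells. Memory and tissue genes were higher in 11 of 16 cases with enough UMIs, with medians of 2.19, 1.69, 2.94 and 3.13, and type 17 genes in 10 of 12, with medians of 4.67, 3.71, 4.32 and 5.49. Under 40 UMIs in the thymocyte-like cells were 3 of these 16 and 5 of these 12 genes, which met the minimum through the members and had to differ, so both counts are descriptions. Of 7 GIMAP genes with enough UMIs 4 were higher, and Gimap3 had log2 ratios of 5.73, 6.33, 6.96 and 5.84. All 7 had 100 or more UMIs in the members alone, but only 3 had in the thymocyte-like cells alone. In the latter 2 had under 40 UMIs, and Gimap3 had 16, 12, 2 and 1, so this count is a description too. Cxcr6 had 8.57, 5.72, 9.41 and 7.37, and Gpr183, a receptor for oxysterols that steers lymphocytes, had 6.04, 5.97, 6.76 and 8.14. Itgb7, an integrin chain of lymphocytes of mucosal tissue, had 5.93, 5.49, 7.57 and 6.53. In contrast to the gamma-delta genes, Gimap3 and Gpr183 were read in both kinds of member, in 83 and 90 of the 95 Trdc positive and in 80 and 60 of the 93 Trdc negative cells. Other lists of mature T cells went both ways. Of 16 naive genes with enough UMIs 4 were higher and 1 was lower, with medians of 0.04, 1.37, -0.13 and 0.74. Of 8 genes listed for mature thymocytes and emigrants 1 was higher and 4 were lower, with medians of -1.53, -0.50, -1.69 and -2.93. In the thymocyte-like cells 2 of the former, and in the members 4 of the latter, had under 40 UMIs, so these counts are descriptions. Genes of cell division, such as Ube2c, Pclaf, Birc5 and histone genes, made up most of those furthest below. The rule limited Mki67 and Top2a in the members only, so this direction follows in part from it and is a description.

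**Figure D4:**
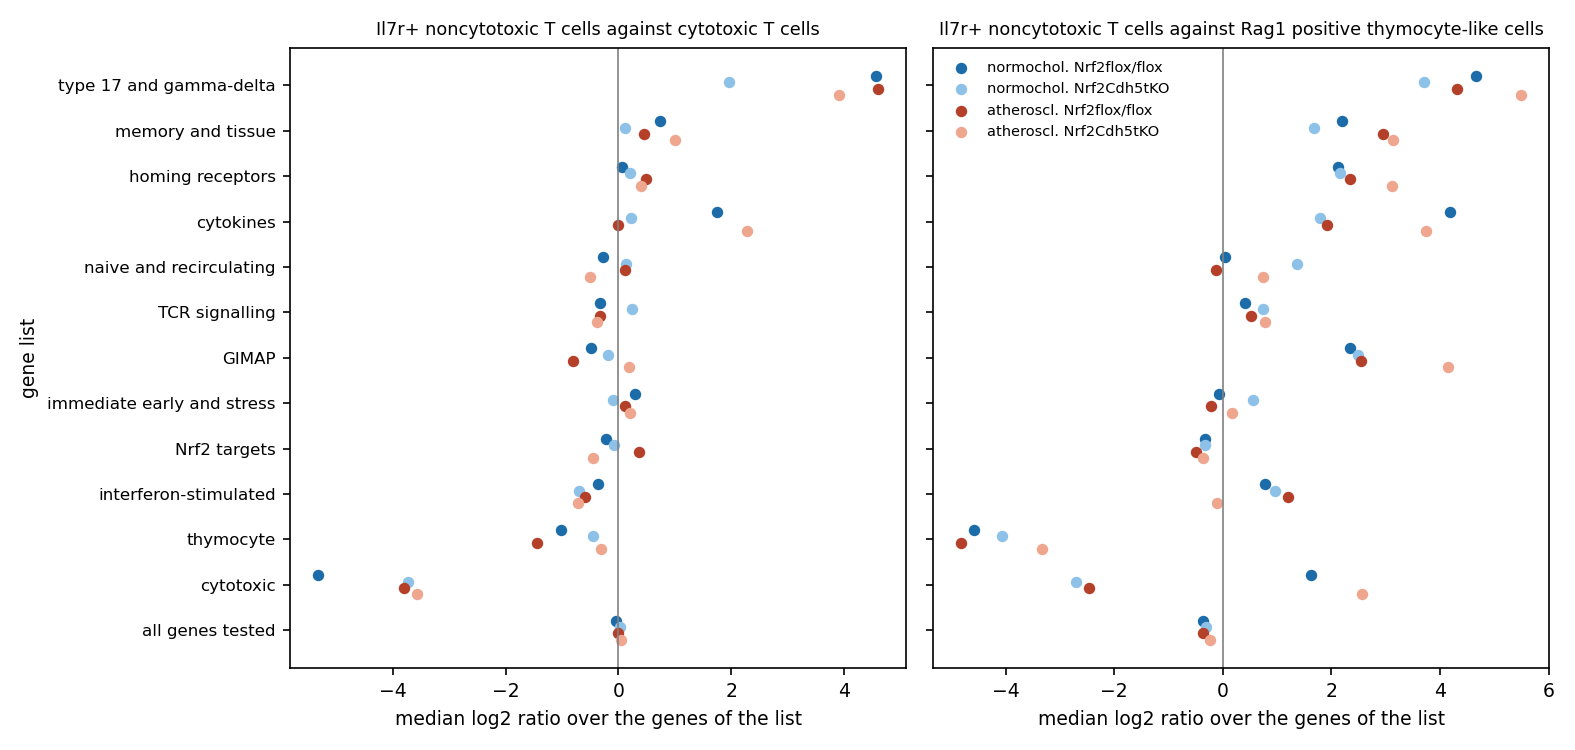
Median log2 ratio over the genes of each list (horizontal axis), members over cytotoxic T cells and members over Rag1 positive thymocyte-like cells, with 1 point for each library. The type 17 list lies between 1.95 and 5.49 in both comparisons. The naive list lies between -0.51 and 0.14 against cytotoxic T cells.

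The targeted gene was looked at first between libraries. Nfe2l2 (chr2:75675513-75704641, minus strand) had 77, 40, 10 and 24 UMIs in the members, which is 77.3, 153, 82.8 and 157 CPM. The intervals were 61.0 to 96.6, 110 to 209, 39.7 to 152 and 101 to 234. In the libraries labelled Nrf2Cdh5tKO it was higher than in the Nrf2flox/flox ones, and the log2 ratio was 0.99 (0.40 to 1.56) under standard diet and 0.93 (-0.19 to 2.15) under high-fat diet. The UMIs do not show which part of the transcript they come from, and the level does not measure the excision of exon 5. The promoter gene of the Cre, Cdh5, had no UMI in any member. In Trdc positive cells Nfe2l2 was at 81.3, 289, 86.5 and 185 CPM, and in Trdc negative cells at 68.8, 117, 77.8 and 126 CPM. Both libraries labelled Nrf2Cdh5tKO were thus above both Nrf2flox/flox libraries in each kind of cell. The atherosclerotic libraries held only 10 and 24 UMIs over both kinds of cell, so their split values rest on fewer still. The interval of their ratio held 0 before the split.

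Genes that Nrf2 is known to drive were lower in sum in both libraries labelled Nrf2Cdh5tKO, whereas their median was lower in only 1 of them. The 10 of 18 genes with enough UMIs together had a genotype log2 ratio of -0.74 (-0.84 to -0.65) under standard diet and one of -0.21 (-0.37 to -0.05) under high-fat diet. In atherosclerotic mice the sum was at -0.55 (-0.76 to -0.35) within the Trdc positive and 0.43 (0.15 to 0.71) within the Trdc negative cells. For diet the sums had -0.44 (-0.57 to -0.32) in Nrf2flox/flox and 0.09 (-0.06 to 0.23) in Nrf2Cdh5tKO mice. The medians of the list were -0.43 for genotype in normocholesterolemic and 0.06 in atherosclerotic mice, and -0.22 for diet in Nrf2flox/flox and 0.15 in Nrf2Cdh5tKO mice. Fth1, the ferritin heavy chain and most abundant gene of the list, had genotype log2 ratios of -0.91 (-1.03 to -0.78) and -0.10 (-0.31 to 0.12). Txnrd1, thioredoxin reductase, had -1.42 (-2.52 to -0.48) and -1.18 (-3.11 to 0.55), on 102, 10, 9 and 5 UMIs. Prdx1, a peroxiredoxin, had -0.50 (-0.93 to -0.10) and 0.62 (-0.21 to 1.51). Nqo1, a standard target, had 1 UMI in all members, and Gclm, a subunit of glutathione synthesis, had 21, 1, 3 and 3. The depth does not allow a statement on Nqo1. Fibroblast markers were also lower in sum in these genotype pairs, at -0.78 (-0.88 to -0.69) and -3.45 (-3.75 to -3.15). Their sums were -3.74 and -4.24 within the Trdc positive cells. Within the Trdc negative cells they were 0.06 (-0.06 to 0.17) and 0.42 (-0.29 to 1.15). The part of fibroblast RNA in the Nrf2 target values was not tested.

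Naive genes were higher, and type 17 genes lower, in the members of the library labelled normocholesterolemic Nrf2Cdh5tKO than in those of the normocholesterolemic Nrf2flox/flox library, and the mix of the 2 kinds of cell moved with this. Each contrast has 2 pairs, Nrf2Cdh5tKO over Nrf2flox/flox in each diet for genotype and atherosclerotic over normocholesterolemic in each genotype for diet. The 2 pairs of a contrast share no library, but both contrasts use the same 4 libraries. For genotype in normocholesterolemic mice 7% of the 4674 genes with at least 40 UMIs in members were 2-fold or more higher and 10.1% lower, and in atherosclerotic mice 11.4% and 12.1%. In this pair 13 of 18 naive genes were 2-fold higher and none was lower, with a median of 1.47, and the type 17 median was -1.05. B cell markers were higher in the same pair, with a log2 ratio of 1.81 (1.20 to 2.42) for the 2 of 6 with enough UMIs together, and without the cell that held most of them the naive and type 17 medians were 1.46 and -0.95. In this library the Trdc positive share was 21.9%, against 60.2% in the other. Within the Trdc positive cells the type 17 median of this pair was 0.08 and the naive median -1.76, with 7 Trdc positive cells in one of the libraries. Within the Trdc negative cells they were -0.91 and 0.46. The difference in type 17 genes was thus nearly as large there as in all members and that in naive genes smaller. Only 4 of the 14 type 17 genes with enough UMIs had 40 or more in the Trdc negative cells alone. The type 17 medians within these cells therefore rest mostly on genes with few UMIs there. In atherosclerotic mice the naive and type 17 medians were -0.13 and 0.18, and the naive one turned to 0.21 as a mean over cells and 0.20 without the members rich in fibroblast UMIs. Lef1 had genotype log2 ratios of 1.85 (1.500 to 2.20) and 0.54 (-0.54 to 1.69), and Satb1 of 1.896 (1.63 to 2.16) and -0.30 (-0.97 to 0.37).

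Over the diet pairs the medians of these lists had opposite signs. For diet 7.02% of the genes were 2-fold or more higher and 11.5% lower in Nrf2flox/flox mice, and 8.34% higher and 12.9% lower in Nrf2Cdh5tKO mice. Naive genes had 0.46 in Nrf2flox/flox and -0.76 in Nrf2Cdh5tKO mice, memory and tissue genes -0.35 and 0.83, and type 17 genes -0.17 and 0.91. The type 17 medians were 0.10 and 0.00 within the Trdc positive and -0.33 and 0.92 within the Trdc negative cells. Scaled by TMM, the naive median in Nrf2flox/flox mice was 0.11. Interferon-stimulated genes had -0.05 and 0.36, but the latter was -0.58 with no minimum of UMIs and the genes together had -0.05 and -0.07. Immediate early and stress genes had -0.76 and 0.19, and the latter was -0.25 within the Trdc negative cells. The part of the cell mix in these values was not tested beyond this split, and no pair has a replicate.

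Few genes passed 2-fold the same way in both pairs of a contrast. For genotype 0.856% of the genes were higher and 2.7% lower in both, and for diet 0.578% were higher and 2.29% lower. Ikzf1, which encodes the lymphoid factor Ikaros, had 71, 59, 4 and 22 UMIs in 88 cells, with genotype log2 ratios of 1.67 (1.14 to 2.18) and 2.12 (0.56 to 4.12). Cd7, a lymphocyte surface protein, had 11, 6, 22 and 15 UMIs in 30 cells, with diet log2 ratios of 4.04 (2.94 to 5.24) and 2.10 (0.65 to 3.75). Both were read in the members of every library. The other genes named as higher with genotype were Tex10, Fam160b1, Pik3c2a, Zcchc8, Mapkap1, Ikzf5 and Gm2682, with 40 to 69 UMIs each. They had 1 to 4 UMIs each in the atherosclerotic Nrf2flox/flox library. For each of them the genotype interval in atherosclerotic mice held 0, for example -0.49 to 7.96 for Tex10 and -0.20 to 3.53 for Gm2682. Named as higher with diet were also Ly6c1, Sfrp1, Pop4, Rnaset2a, Lactb, Zzef1 and Fam46a. Sfrp1, a secreted Wnt inhibitor of stromal cells, had 21, 0, 19 and 1 UMIs, so that its diet ratio in Nrf2Cdh5tKO mice rests on 1 UMI against 0, and 1 cell held 46.3% of them.

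Of the genes on the lower side 8 were named for each contrast, and several of them are known from fibroblasts and other stromal cells. F3, Svep1, Sfrp4, Apod, Efemp1, C7, Sfrp1 and Anxa3 were the 8 named as lower with genotype, and they were read in 8 to 15 of the 188 members each. F3, tissue factor, had 86, 0, 19 and 0 UMIs in 12 cells, and all 19 UMIs of the atherosclerotic Nrf2flox/flox library lay in 1 cell. For 7 of the 8 genes every UMI of that library lay in this same cell, which also held 847 of its 898 fibroblast marker UMIs, and for Efemp1 it held 5 of 7. The ratios of these genes for genotype in atherosclerotic mice thus rest mainly on 1 cell. The fibroblast marker sums given above had their lowest value in the library labelled atherosclerotic Nrf2Cdh5tKO, and the list had medians of -0.49 and -3.84 for genotype, against 0.56 and -0.16 within the Trdc negative cells, which do not include the cell just described, and -4.03 and -4.83 within the Trdc positive ones. For diet its medians were 0.34 in Nrf2flox/flox and -3.33 in Nrf2Cdh5tKO mice, with -3.24 and -4.31 within the Trdc negative and 0.83 and -0.37 within the Trdc positive cells. Lower with diet were Igkc, an antibody light chain, and the stromal genes Vcl, Lhfp, Ptgs2, Timp3, Has1 and Vcan, among others. A single cell held 61.9% of the Igkc UMIs, and a single cell 47.8% of the Has1 UMIs. The interval of Igkc in Nrf2flox/flox mice held 0 and reached 1.20. In Nrf2Cdh5tKO mice those of Lhfp, Ptgs2 and Vcan held 0 and reached 0.25, 0.90 and 0.0023. The intervals of Vcl, Timp3 and Has1 lay below 0 in both pairs. Timp3, an inhibitor of matrix proteases, had 194, 80, 1 and 5 UMIs in 44 members. The part of fibroblast RNA in these genes was not tested.

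**Figure D5:**
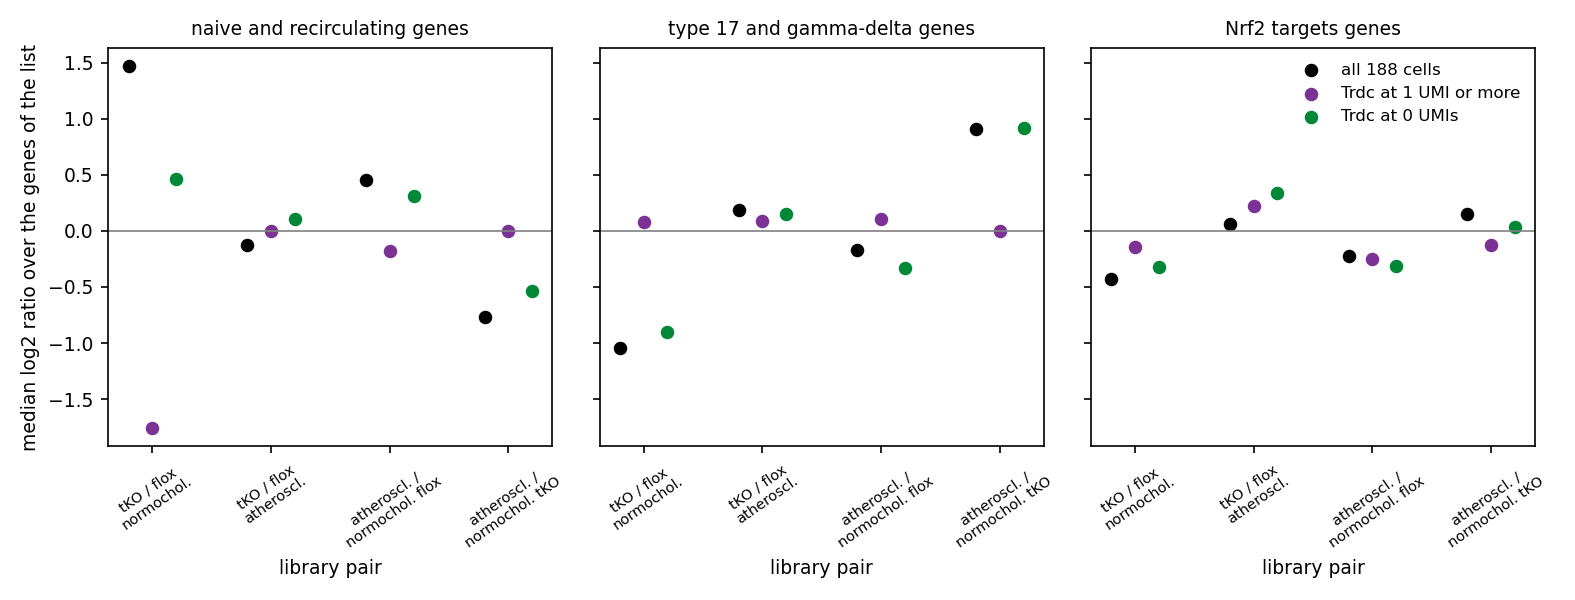
Median log2 ratio over the genes of the naive, type 17 and Nrf2 target lists (vertical axis) for the 2 genotype pairs and the 2 diet pairs (horizontal axis), in all members, in Trdc positive and in Trdc negative members. The naive median for genotype in normocholesterolemic mice is 1.47 in all members and 0.46 in Trdc negative members, and the type 17 median of that pair is -1.05 in all, 0.08 in Trdc positive and -0.91 in Trdc negative members.

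The cells next to the limits of the rule were counted by a few genes. The 20 members with exactly 1 Il7r UMI held 0 cells with Trdc, 16 with Trac and 14 with Cd4. Just outside, the 134 cells that met every other limit with 0 Il7r UMIs had Trdc in 8.21%, Trac in 48.5%, Cd4 in 25.4% and the myeloid gene Lyz2 in 55.2% of cells, where the members had 50.5%, 48.9%, 20.7% and 59.0%. The 13 cells with 1 Nkg7 UMI held 9 with Trac, 5 with Cd8b1 and 1 with Trdc. Of the 11 cells with only 1 Cd3 UMI 2 had Trac, and just inside the limit 2 members had exactly 2 Cd3 UMIs. These values describe the limits and were not tested.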

How the data were processed

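Single-cell 3′ libraries of pooled aortic tissue (10x Chromium) were measured, 1 for each of 4 conditions. The values the authors deposited are whole UMI counts per gene and cell barcode, not normalized, over 31053 genes. To make them, the authors mapped reads to mm10 and counted UMIs with Cell Ranger 6.1.2, the version given in the submitters' processing notes, before any filter on genes or mitochondrial share. Here, 14148 of 15599 barcodes were kept by the limits of the study's methods. Members and comparators were cut by the UMI limits given in the report. UMIs were summed per library and population and divided by the population's total to give CPM. Log2 ratios of single libraries had 0.5 UMIs added in proportion to depth, and ratios over summed libraries had none. Intervals were exact (Clopper-Pearson for shares, Poisson for CPM, binomial split for ratios, all 95%), and a count of 0 allows for 3 UMIs. Library and list medians used genes with at least 100 UMIs in both populations together, or 40 in the members. Doublets were called with Scrublet, as in scanpy 1.11.5, and were kept in the main values. Statistics were computed with scipy 1.17.1 under Python 3.11.15, tables with pandas 2.3.3 and numpy 2.4.6, and TMM factors, as an alternative scaling only, with edgeR 4.0.16 under R 4.3.3. The steps were tested on simulated counts.

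Named genes were those of the lists, the 10 in each direction with the largest least extreme ratio over the 4 libraries for the comparators, and for libraries the 8 in each direction past 2-fold in both pairs. The genes of the rule were not ranked. The split by Trdc, and the genes that describe it beyond the lists, were chosen after their values were seen. The members and lists were chosen with earlier results of these data known. A few items that the rule would name are not reported here.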

Additional observations from a re-analysis of the deposited data

Results flagged for a closer look

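In the members several differences between libraries pointed in opposite directions in the 2 pairs of a contrast. None of these was tested, since each condition is 1 library. The 2 pairs of a contrast share no library, but the diet and genotype contrasts use the same 4 libraries. The members' share of cells with at least 2 Cd3 UMIs changed with diet by -12.3 percentage points in Nrf2flox/flox and 19.6 in Nrf2Cdh5tKO mice. With genotype it changed by -12.6 in normocholesterolemic and 19.3 in atherosclerotic mice. The difference was -31.9 for either contrast, which is a single quantity, since both are formed from the same 4 shares. The Trdc positive share of members changed with diet by -13.1 and 24.3 percentage points, a difference of -37.4.

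List medians did the same on the log2 scale. The diet and genotype effects of a list come from the same 4 libraries and are not separate findings. For naive genes the diet effects of 0.46 and -0.76 differed by 1.22, and the genotype effects of 1.47 and -0.13 by 1.60. The genotype medians had the same direction as a mean over cells, with 1.13 and 0.21, and without members rich in fibroblast UMIs, with 1.35 and 0.20, and TMM scaling took the diet value of 0.46 to 0.11. Within Trdc negative members the genotype medians were 0.46 and 0.11 and the diet medians 0.31 and -0.54, and within Trdc positive members they were -1.76 and 0.00 and -0.18 and 0.00. For memory and tissue genes the diet effects of -0.35 and 0.83 differed by -1.18, and the genotype effects of -1.09 and 0.02 by -1.11, although the latter was -0.17 as a mean over cells. For these genes the diet medians were -0.13 and 0.36 within Trdc positive and -0.80 and 0.63 within Trdc negative members, and the genotype medians -0.37 and -0.0041 and -0.68 and 0.26. For type 17 genes the values were -0.17 and 0.91 for diet, a difference of -1.08, and -1.05 and 0.18 for genotype, a difference of -1.23. Within Trdc positive members these medians were 0.10 and 0.00 for diet and 0.08 and 0.09 for genotype, with no opposite directions, and within Trdc negative members they were -0.33 and 0.92 and -0.91 and 0.15. Immediate early and stress genes had -0.76 and 0.19 for diet, a difference of -0.95, and -0.06 and 0.45 for genotype, a difference of -0.51. Within Trdc negative members 0.19 turned to -0.25 and -0.06 to 0.24, so that neither pair of medians had opposite directions there. Within Trdc positive members the pairs lay further apart, at -0.75 and 0.82 for diet and -0.85 and 0.89 for genotype. Interferon-stimulated genes had -0.05 and 0.36 for diet, a difference of -0.41, and -0.03 and 0.23 for genotype, a difference of -0.26. With no minimum of UMIs 0.36 turned to -0.58, and the genotype medians turned to 0.22 and -0.23. Summed over their genes they had one direction, with -0.05 and -0.07 for diet and -0.10 and -0.13 for genotype, and every interval of these sums held 0. Within Trdc positive members the sums were 0.05 (-0.31 to 0.38) and 0.73 (0.17 to 1.33) for diet and -0.71 (-1.23 to -0.23) and -0.02 (-0.47 to 0.44) for genotype. Nrf2 target genes had -0.22 and 0.15 for diet, a difference of -0.37, and -0.43 and 0.06 for genotype, a difference of -0.49. Their sums were lower in both genotype pairs, at -0.74 (-0.84 to -0.65) and -0.21 (-0.37 to -0.05), whereas for diet they were -0.44 and 0.09. Within Trdc negative members the genotype sums were -0.75 (-0.87 to -0.62) and 0.43 (0.15 to 0.71) and the diet sums -0.87 (-1.11 to -0.64) and 0.30 (0.11 to 0.499). Within Trdc positive members they had one direction, at -0.24 (-0.41 to -0.08) and -0.55 (-0.76 to -0.35) for genotype and -0.19 (-0.34 to -0.05) and -0.51 (-0.73 to -0.29) for diet.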

How the results depend on the processing

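Apart from leaving out a library, of 404 alternatives over 60 results 346 left the value within its spread, 56 moved it past that, and 2 turned the direction of a list median of 2-fold or more. Smaller list medians turned more often. Counted at any size, 25 of 216 alternatives changed the sign of a median between libraries, for 14 of 24 medians, and 5 of 120 did so against the comparators, for 2 of 24 medians. The values against the comparators without 1 library each, 96 in all, are means of 3 library medians in place of 4, which cannot pass the SD of the 4, so they say nothing of stability. They shifted the mean by up to 0.94, and 4 of them changed the sign of 3 means, the largest of which was 0.24 in size. No paired analysis was possible because each condition is 1 library. For the values between libraries, the width used to call a change was set after the outcome was seen, as the counting error of a median, and 46 of 216 alternatives passed it, against 84 with the narrower interval of the summed list. The cause of the changes was not tested.

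Cells thinned to 1000 UMIs gave shares of members with Trdc, Cd4 and Cd8 of 41.7%, 4.81% and 5.35%, down from 50.5%, 20.7% and 12.8%, and the rule applied to thinned cells gave 0.748% and 0.422% of kept cells in the normocholesterolemic Nrf2flox/flox library and the one labelled Nrf2Cdh5tKO. With at least 2 Il7r UMIs 14.9% of members had Cd4. TMM factors shifted every ratio of a pair by -0.25 for genotype in normocholesterolemic mice, 0.05 in atherosclerotic mice, and -0.34 and -0.04 for diet in Nrf2flox/flox and Nrf2Cdh5tKO mice. The furthest shifts were -0.31 and -0.11 for the Trdc split, in the library labelled normocholesterolemic Nrf2Cdh5tKO and the atherosclerotic Nrf2flox/flox one, -0.16 against cytotoxic T cells and 0.29 against Rag1 positive cells. Nrf2 targets against Rag1 positive cells went from -0.38 to -0.27 with TMM, -0.28 as a mean over cells and -0.25 with no minimum of UMIs. As a mean over cells GIMAP and TCR signalling genes against these cells went from 2.88 and 0.62 to 1.97 and 0.049. With no minimum, interferon genes against cytotoxic T cells went from -0.59 to -0.41, and for diet in Nrf2Cdh5tKO mice to -0.58.

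Between libraries, for genotype in normocholesterolemic mice, TMM gave medians of 1.22 for naive, -1.34 for memory and -0.31 for immediate early genes. For diet in Nrf2flox/flox mice TMM gave 0.11, -0.69 and -1.10 for these and -0.51 for type 17 genes. The mean over cells gave 1.13 and 0.21 for naive genes with genotype in normocholesterolemic and atherosclerotic mice. For memory genes it gave -0.96 and -0.17 there and 0.55 with diet in Nrf2Cdh5tKO mice. Without Scrublet doublets the naive genotype median was 1.24 in normocholesterolemic mice and the immediate early diet median in Nrf2flox/flox mice -0.38.

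The next 4 alternatives were chosen after seeing the data. Without the member with 68 B cell UMIs the immediate early genotype median in normocholesterolemic mice was -0.35. Without members with 50 or more fibroblast UMIs, genotype medians in normocholesterolemic mice were 1.35 for naive, -0.97 for memory and -0.25 for immediate early genes, the naive one in atherosclerotic mice 0.20, and the immediate early diet medians -0.54 and 0.44. In Trdc positive members alone the naive and type 17 genotype medians in normocholesterolemic mice turned to -1.76 and 0.079, and those of memory, immediate early and interferon genes were -0.37, -0.85 and -0.53. In atherosclerotic mice the immediate early one was 0.89. The diet medians there were -0.18, -0.13 and 0.10 for naive, memory and type 17 genes in Nrf2flox/flox mice, and 0, 0.36, 0, 0.82 and 0.81 for naive, memory, type 17, immediate early and interferon genes in Nrf2Cdh5tKO mice. In Trdc negative members alone the genotype medians in normocholesterolemic mice were 0.46 for naive, -0.68 for memory and 0.24 for immediate early genes. In atherosclerotic mice those of memory and interferon genes were 0.26 and -0.42. The diet medians of memory and immediate early genes were -0.80 and -0.995 in Nrf2flox/flox mice, and those of naive, memory and immediate early genes -0.54, 0.63 and -0.25 in Nrf2Cdh5tKO mice.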
